A study of Danio rerio with 4 samples.

Results

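The cytosolic ribosomal protein genes were followed in single cells sorted for a radial glial reporter from the adult zebrafish telencephalon. Members were all gene symbols of the deposited feature tables that begin with rpl or rps followed by a number or by p and a number, plus rpsa, with the rps6k kinases left out. The rule found 82 symbols of 24435. Of these, 42 are proteins of the large subunit, 34 are proteins of the small subunit and 4 belong to the stalk of the large subunit (rplp0, rplp1, rplp2 and rplp2l). The other 2, rpl7l1 and rps19bp1, match the rule by spelling but are not structural proteins of the mature ribosome.

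Each ribosome joins a small subunit, which reads the messenger RNA, to a large subunit, which forms the peptide bond. Its proteins must be made in matched amounts, and in vertebrates their mRNAs carry a terminal oligopyrimidine tract through which growth signals set their translation. In the adult zebrafish telencephalon, radial glia line the ventricle, act as neural stem cells that are mostly out of the cell cycle, and can enter it after a stab wound to make neurons.

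There were 4 libraries, each from 7 pooled telencephalons of fish aged 3 to 7 months and each the only one of its group, so no comparison between conditions has a replicate and none was tested. The library 3dpl came from Tg[GFAP:dTomato]nns17Tg fish, 3 days after a stab lesion, and the library Non-injured from fish of the same line without a lesion according to its title. The libraries 3dpl/MTZ and Non-injured/MTZ came from fish that carried Tg[mpeg1:NTR-EYFP]w202 as well and received MTZ, metronidazole, a prodrug toxic to cells with nitroreductase (NTR). The mpeg1 promoter drives NTR in microglia and macrophages. MTZ, the second transgene and the pool of fish therefore cannot be told apart. One label field calls every library stab lesioned, against the titles, and the titles were used.

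The matrices held 1097 barcodes in 3dpl, 741 in Non-injured, 1657 in 3dpl/MTZ and 1362 in Non-injured/MTZ, with 2942274 to 7541363 UMIs (unique molecules counted) per library, and 4733 cells were kept. Non-injured/MTZ was the shallowest by cell, with a median of 2510 UMIs per barcode against 3335 to 3939 in the others. Any pair of libraries shared at most 6 barcodes. Of the kept cells, 4003 had fabp7a, a fatty acid binding protein of radial glia, at 0.5% or more of their UMIs and were not cycling. These fabp7a cells held UMIs of 12 of 12 radial glia markers in every library. Cycling cells (219) were those with at least 3 of 30 S and G2/M genes making up at least 0.3% of UMIs, and neurons (189) those with at least 4 of 28 neuronal genes making up at least 0.5%, fabp7a below 0.5% and no cycling call. No ribosomal protein gene was used in these gates. Within 20% above their gates lay 85 fabp7a cells, 11 cycling cells and 2 neurons. The count of 12 of 12 radial glia markers does not set fabp7a cells apart, since cycling cells of every library and 3dpl/MTZ neurons reached it too. In neurons these markers summed to 869 to 6923 CPM (UMIs per 1000000 UMIs of the class and library), against 62210 to 94214 CPM in fabp7a cells. Both sums include fabp7a, which itself sets the gates, at 202 to 1324 CPM in neurons and 23764 to 40194 CPM in fabp7a cells.

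All 82 members had at least 100 UMIs in the 3 classes together. In fabp7a cells 63 averaged at least 1000 CPM over the 4 libraries, and the median member averaged 1421 CPM. Library chemistry counts 1 tag near the 3′ end of each molecule, so these levels need no length correction. The 5 most abundant members were rplp1, a phosphoprotein of the stalk that recruits elongation factors, at a mean of 3112 CPM, the exit tunnel protein rpl39 at 3053 CPM, the zinc-binding small subunit protein rps29 at 2932 CPM, and the large subunit proteins rpl37 at 2592 CPM and rpl36a at 2163 CPM. rpl37 was the only member summed over 2 gene identifiers, so its rank is not strictly like those of the others. The 10 most abundant members held 21.2% of all ribosomal protein UMIs in these cells. At the other end stood rpl22l1, the paralog of the RNA-binding protein rpl22, at 315 CPM, rpl26 at 119 CPM, rpl7l1 at 41.5 CPM, rps19bp1 at 35.6 CPM and rps8b at 7.22 CPM. In mammals RPL7L1 acts in assembly of the large subunit and RPS19BP1 binds RPS19. No single cell gave more than 4.17% of any member's UMIs.

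Ribosomal protein genes together took 14.4% of UMIs in the fabp7a cells of 3dpl and 8.03% in those of Non-injured. They took 11.7% in 3dpl/MTZ and 10.2% in Non-injured/MTZ. Both subunits shared in this order, with large subunit genes at 8.34%, 4.68%, 6.74% and 5.88% and small subunit genes at 6.10%, 3.35%, 4.99% and 4.33% in 3dpl, Non-injured, 3dpl/MTZ and Non-injured/MTZ. The highest share thus lay in the lesioned library without MTZ and the lowest in its unlesioned counterpart, with both MTZ libraries between them. The exact binomial 95% interval of the total share ran from 14.41% to 14.48% in 3dpl and was as narrow in the others, and it covers counting error only.

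**Figure D1:**
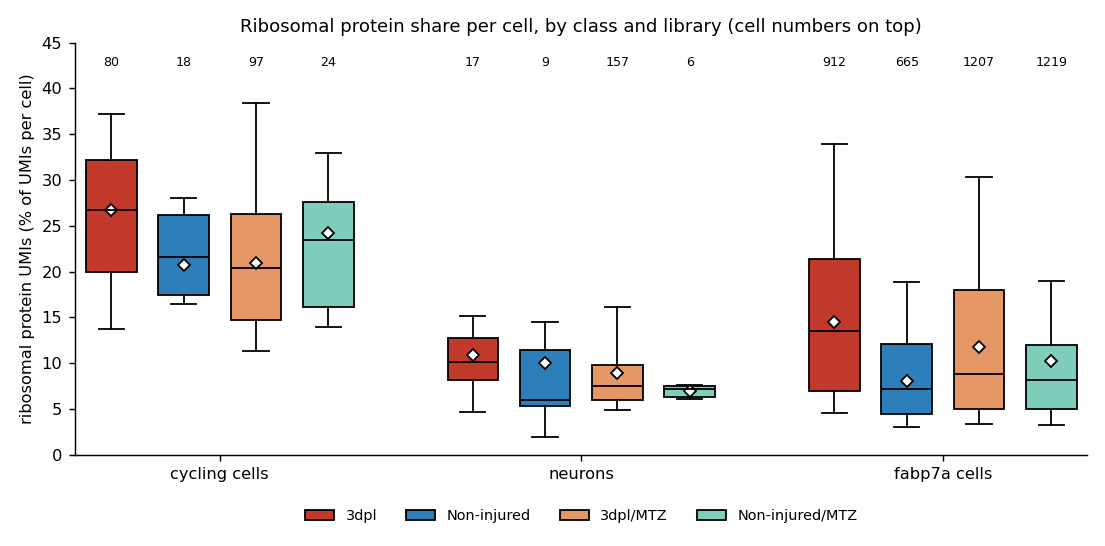
Share of each cell's UMIs that came from ribosomal protein genes, for cycling cells, neurons and fabp7a cells of the 4 libraries. Boxes show the quartiles and median over cells, whiskers the 10th and 90th percentiles, diamonds the share of the summed UMIs, and numbers the cells; cycling cells sum to 20.7% to 26.8%, and fabp7a cells to 8.03% to 14.4%.

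Single cells spread much more widely than the library sums, as the plot of shares per cell shows. In 3dpl the median fabp7a cell had 13.5% ribosomal protein UMIs and the 90th percentile was 34.0%, against a median of 7.20% and a 90th percentile of 18.9% in Non-injured. In 3dpl/MTZ the median was 8.81% and the 90th percentile 30.4%, against 8.11% and 19.02% in Non-injured/MTZ. Over all depths together, the 2 MTZ libraries therefore differed little at the median and more in the upper tail. Within ranges of depth their medians differed more and in both directions. In 3dpl/MTZ and Non-injured/MTZ they were 18.2% and 13.4% at 1000 to 2000 UMIs and 12.8% and 9.96% at 2000 to 4000 UMIs. At 4000 to 8000 UMIs they were 5.76% and 7.83%, and above that 6.74% and 9.34% on 100 and 11 cells. Cells with at least 20% made up 28.2% of fabp7a cells in 3dpl and 9.02% in Non-injured, and 21.7% in 3dpl/MTZ and 9.19% in Non-injured/MTZ. After each cell was thinned to 1000 UMIs, which left out 37, 32, 58 and 354 cells in the same order, these shares were 29.4%, 8.37%, 22.4% and 10.4%.

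The lesion comparison without MTZ asked how these genes stand in fabp7a cells 3 days after injury. The summed ribosomal protein level was 1.80 times as high in 3dpl as in Non-injured (log2 ratio 0.85, 95% interval 0.84 to 0.85, counting error only). Of 81 members with at least 100 UMIs in the 2 libraries, 80 lay above 0, against 34.4% of all 6328 genes. At or past a log2 ratio of 0.5 were 78 members, against 11.3% of all genes. None was at or past -0.5, where 21.3% of all genes were. The median was 0.86 for members, -0.17 for all genes and -0.03 for the other genes with at least 2000 UMIs. TMM scaling, which centres the bulk of genes, added 0.17 to every log2 ratio of this comparison and put 79 members past 0.5. The median was 0.86 for large subunit, 0.86 for small subunit and 0.96 for stalk genes, so no class of protein stood aside. A higher share in 3dpl than in Non-injured was not particular to fabp7a cells. Kept cells outside the 3 classes had 28.0% in 3dpl (60 cells) and 13.3% in Non-injured (35 cells). With MTZ they had 22.1% in 3dpl/MTZ (143 cells) and 14.5% in Non-injured/MTZ (84 cells).

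rpl22l1 had the highest ratio. Its level was 561 CPM in 3dpl and 144 CPM in Non-injured, 3.90 times as high (log2 ratio 1.97, interval 1.81 to 2.13). rplp2l, the second P2 stalk gene, had 2412 CPM in 3dpl and 1037 CPM in Non-injured (log2 ratio 1.22). rpsa, whose product sits on the small subunit and is also known as a laminin receptor, had 2032 CPM in 3dpl and 886 CPM in Non-injured (log2 ratio 1.2). rplp0, the base of the stalk, had 2328 CPM in 3dpl and 1180 CPM in Non-injured (log2 ratio 0.98). rps27a, made as a fusion with ubiquitin, had 2302 CPM in 3dpl and 1221 CPM in Non-injured (log2 ratio 0.92). The 3 lowest ratios belonged to scarce members, namely rps19bp1 at -0.04, rpl26 at 0.16 and rpl7l1 at 0.37, and the interval for rpl26 ran from -0.05 to 0.36.

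The same comparison under MTZ gave a smaller and less even difference. The summed level was 1.15 times as high in 3dpl/MTZ as in Non-injured/MTZ (log2 ratio 0.20, interval 0.19 to 0.21). Here 60 of 81 members lay above 0, against 50.2% of all 7030 genes. At or past 0.5 were 20, against 13.9% of all genes, and 1, rpl26, was at or past -0.5 against 12.8%. The median was 0.24 for members and 0.00 for all genes, and with TMM scaling 71 lay above 0 and 30 were past 0.5. This comparison changed sign with the choice of cells: its log2 ratio was -0.04 when cells below 800 genes or above 10% mitochondrial UMIs were dropped, and -0.15 among cells with 4000 to 8000 UMIs.

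The highest ratios under MTZ were those of rpl3, a protein near the peptidyl transferase centre, with 700 CPM in 3dpl/MTZ and 362 CPM in Non-injured/MTZ (log2 ratio 0.95), of rps18, a protein of the head of the small subunit, with 820 CPM in 3dpl/MTZ and 433 CPM in Non-injured/MTZ (0.92), and of rpl15, with 998 CPM in 3dpl/MTZ and 589 CPM in Non-injured/MTZ (0.76). The lowest were those of rpl26, a large subunit protein near the exit tunnel, at -1.80, of rps19bp1 at -0.31 and of rpl29 at -0.31, with 1423 CPM in 3dpl/MTZ and 1760 CPM in Non-injured/MTZ for rpl29. Set side by side, 60 members were above 0 in both lesion comparisons, 1, rps19bp1, was below 0 in both, and 20 had opposite signs. The ratio without MTZ was the larger one for 81 of 81 members, which share the same 4 libraries and UMI totals and are not separate observations. These side-by-side counts were not taken over all genes, whose median was -0.17 without MTZ and 0.00 with it. With 1 library per group the difference between the comparisons was not tested.

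**Figure D2:**
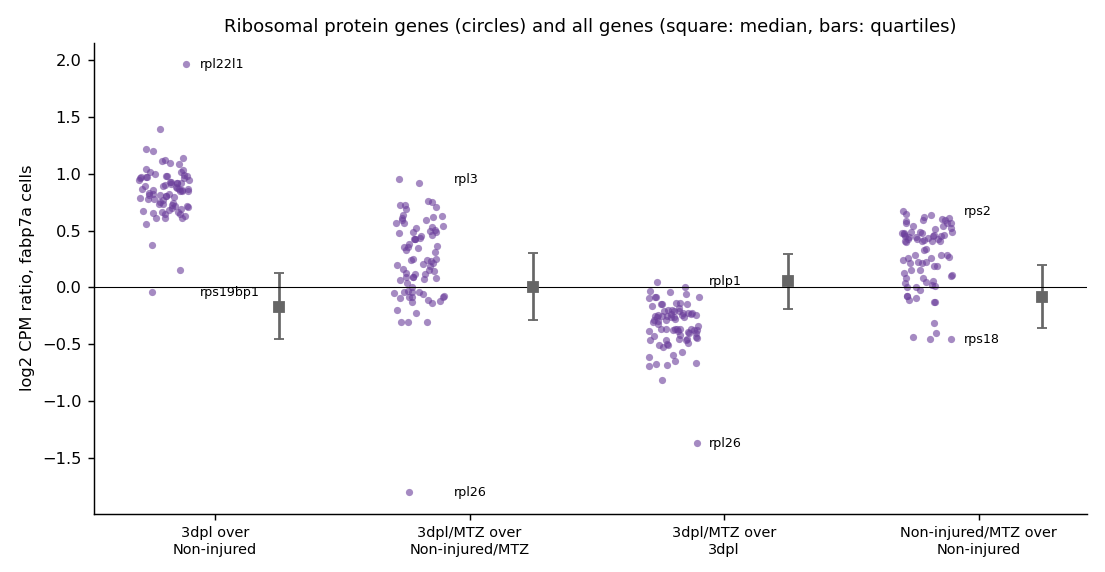
Log2 ratios of CPM in fabp7a cells for the 81 ribosomal protein genes with at least 100 UMIs, in 4 comparisons of 2 libraries. Circles are ribosomal protein genes, with the highest and the lowest of those with at least 200 UMIs named; the square is the median of all genes and its bars their quartiles. Members have a median of 0.86, 0.24, -0.31 and 0.34 from left to right.

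Depth, mitochondrial share and cell make-up also differed between the libraries. Median UMIs per fabp7a cell were 3861 in 3dpl and 3343 in Non-injured, and 4048 in 3dpl/MTZ and 2709 in Non-injured/MTZ. Mitochondrial UMIs were 2.02% in 3dpl and 2.15% in Non-injured, and 3.48% in 3dpl/MTZ and 1.72% in Non-injured/MTZ. The part of the mitochondrial share in the ratios was not tested by itself. Within each of 4 ranges of depth the share was higher in 3dpl than in Non-injured, by 1.62 to 2.07 times. In 3dpl/MTZ it was 1.5 times that of Non-injured/MTZ among cells with 1000 to 2000 UMIs and 1.53 times among cells with 2000 to 4000 UMIs. It was 0.902 times that of Non-injured/MTZ at 4000 to 8000 UMIs and 1.11 times above that, where Non-injured/MTZ had 11 cells. The 15 microglia and macrophage markers summed in fabp7a cells to 107 CPM in 3dpl (7 of 15 with a UMI), 4.60 CPM in Non-injured (8 of 15), 49.6 CPM in 3dpl/MTZ (9 of 15) and 148 CPM in Non-injured/MTZ (14 of 15). The defining marker mpeg1.1 had 9 UMIs in Non-injured/MTZ and 0 in each of the other libraries. The part of these markers in the ribosomal protein ratios was not tested.

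**Figure D3:**
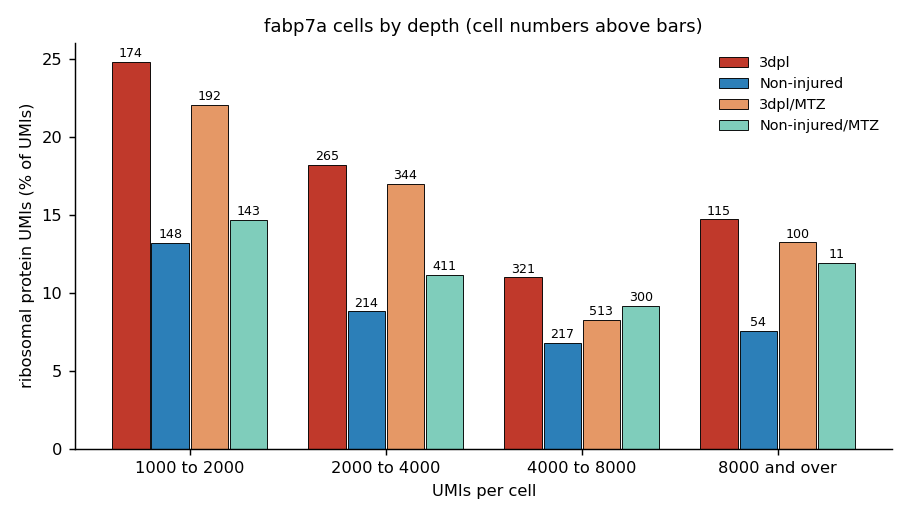
Share of UMIs from ribosomal protein genes in fabp7a cells, split by UMIs per cell, for the 4 libraries, with cell numbers above the bars. The 3dpl bar is the tallest in every range, and the 3dpl/MTZ bar stands above the Non-injured/MTZ bar except at 4000 to 8000 UMIs (8.27% and 9.17%).

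The MTZ comparisons went in opposite directions in lesioned and unlesioned fish. Among lesioned libraries the summed level was 0.812 times as high in 3dpl/MTZ as in 3dpl (log2 ratio -0.30, interval -0.30 to -0.29). Only 2 of 81 members lay above 0, against 56.8% of all genes. None was at or past 0.5 against 10.9% of all genes, and 13 were at or past -0.5 against 9.72%. Among unlesioned libraries it was 1.27 times as high in Non-injured/MTZ as in Non-injured (log2 ratio 0.35, interval 0.34 to 0.36). There 69 of 81 members lay above 0, against 42.0% of all genes. At or past 0.5 were 16 against 8.16% of all genes, and none was at or past -0.5 against 15.9%. Under TMM scaling the number past 0.5 in the unlesioned pair was 39, and the mean of per-cell shares gave that pair a log2 ratio of 0.08. The difference between the pairs was not tested.

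In the lesioned pair rpl26 was again lowest, with 50.7 CPM in 3dpl/MTZ and 131 CPM in 3dpl (log2 ratio -1.37). It was followed by rpl6, with 449 CPM in 3dpl/MTZ and 791 CPM in 3dpl (-0.82), and rpl22l1, with 346 CPM in 3dpl/MTZ and 561 CPM in 3dpl (-0.69). The highest were rplp1 at 0.05, rpl7l1 at 0.00 and rps12, a small subunit protein, at -0.03. In the unlesioned pair the highest were rps2, a protein at the mRNA entry of the small subunit, with 1513 CPM in Non-injured/MTZ and 951 CPM in Non-injured (0.67), rplp1 at 0.65 and rpl17, which lines the exit tunnel, at 0.64. The lowest were rps18 at -0.46, rpl4 at -0.45 and rpl3 at -0.44, and rpl3 had 362 CPM in Non-injured/MTZ and 490 CPM in Non-injured. Members of lower abundance behaved differently here. The 41 more abundant members had a median of 0.45 and all lay above 0, while the 40 less abundant ones had a median of 0.08 with 28 above 0. In the lesion comparison under MTZ, which uses the same Non-injured/MTZ library, the more abundant members had a median of 0.12 and the less abundant ones 0.47.

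rpl26 stood apart in 1 library in more than 1 class of cells. In fabp7a cells it had 131 CPM in 3dpl, 118 CPM in Non-injured, 50.7 CPM in 3dpl/MTZ and 177 CPM in Non-injured/MTZ. In cycling cells it had 237 CPM in 3dpl, 327 CPM in Non-injured, 88.4 CPM in 3dpl/MTZ and 633 CPM in Non-injured/MTZ. The 3dpl/MTZ value was the lowest of the 4 in both classes, on 273 and 62 UMIs, and the Non-injured/MTZ value was the highest in both. Neurons had too few rpl26 UMIs for an order, with 43.0 CPM in 3dpl/MTZ and 61.4 CPM in 3dpl from 26 and 7 UMIs.

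Other lists of the translation machinery are read against the shares of all genes given above, 11.3% at or past 0.5 and 21.3% at or past -0.5 in 3dpl over Non-injured. Of the ribosome parts with other names, the fusion gene faua had a log2 ratio of 0.62 and rack1, a scaffold of the small subunit, one of 0.76 in 3dpl over Non-injured. Elongation factors had 7 of 9 measured genes at or past 0.5 and a median of 0.66. Initiation factors had 5 of 29 and a median of 0.14. That list also holds the eIF4E-binding eif4ebp1 and eif4ebp3l and the poly(A)-binding pabpc1a and pabpc1b. Of these, eif4ebp3l (1.25) and pabpc1a (0.79) were among the 5. Ribosome biogenesis genes had 4 of 23 and a median of 0.19. Mitochondrial ribosomal proteins, encoded in the nucleus for the organelle's own ribosome, had 0 of 64 past 0.5, 14 past -0.5, close to the share of all genes, and a median of -0.32 beside -0.17 for all genes. In 3dpl/MTZ over Non-injured/MTZ the medians were 0.10 for elongation, 0.04 for initiation, 0.10 for biogenesis and -0.31 for mitochondrial ribosomal proteins. A list of p53 targets, of which 6 and 7 were measured, had medians of 0.14 without MTZ and -0.06 with MTZ.

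Cells rich in ribosomal protein UMIs also differed in other ways, given as levels per 1000000 UMIs of other nuclear genes. Compared with fabp7a cells under 5%, those with at least 20% had 5.42 to 6.11 times the summed elongation factors in the 4 libraries, 2.91 to 3.40 times the initiation factors, 2.87 to 3.70 times the biogenesis genes and 1.55 to 1.86 times the mitochondrial ribosomal proteins. gfap, the intermediate filament gene of astroglia, was 1.84 to 6.61 times as high in them. The radial glia markers her4.1 and s100b were 1.12 to 3.61 and 1.03 to 2.76 times as high. fabp7a was 1.60 to 1.65 times as high, but it sets the gate of these cells as a share of all UMIs, so nothing is read from its ratio. glula, the glutamine synthetase of mature astroglia, was 0.382 to 0.630 times as high. The summed radial glia markers, which include fabp7a, were 0.765 to 0.874 times as high, and the summed neuron markers 1.42 to 4.27 times. Mitochondrial UMIs were 2.39% in 3dpl cells with at least 20% and 1.65% in those under 5%, 2.90% and 2.01% in Non-injured, 5.41% and 2.41% in 3dpl/MTZ, and 1.34% and 2.65% in Non-injured/MTZ. Genes of the cycling gate were 4.99 to 6.14 times as high in cells with at least 20% as in those under 5%. Cycling cells had been removed by the number of these genes seen and by their share of all UMIs. A cycling cell with few UMIs or many ribosomal protein UMIs can miss that gate, so nothing is read from this ratio about cells outside the cycle. The part of such missed cells in it was not tested. In 3dpl the median depth was 2404 UMIs in cells with at least 20% and 5583 in cells under 5%. In 3dpl/MTZ it was 2414 against 5260, in Non-injured 1444 against 4027, and in Non-injured/MTZ 1804 against 699, so depth did not move the same way in every library. These cells were grouped by the share itself, and no test was made.

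Cycling cells had a larger share of ribosomal protein UMIs than fabp7a cells in every library. The share was 26.8% in cycling cells and 14.4% in fabp7a cells of 3dpl, 20.7% and 8.03% in Non-injured, 21.0% and 11.7% in 3dpl/MTZ, and 24.2% and 10.2% in Non-injured/MTZ. The ratio was 1.85, 2.57, 1.79 and 2.37 in that order, with a mean log2 ratio of 1.08 ± 0.26 (SD, n = 4). An exact two-sided sign-flip permutation test over the 4 libraries gave p = 0.13, the smallest p that 4 libraries allow. In the 3 libraries with at least 10 cycling cells of 4000 to 8000 UMIs the ratio was 2.42 to 2.58. Cycling cells were deeper, with medians of 5458 to 8846 UMIs. Of the cycling cells 145 also passed the fabp7a gate, and their share was 22.4%, 20.2%, 19.1% and 23.3% in 3dpl, Non-injured, 3dpl/MTZ and Non-injured/MTZ, so they too stood above the fabp7a cells of their library.

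Gene by gene, edgeR's quasi-likelihood test on UMI sums per library and class, with library as a block and Benjamini-Hochberg adjustment over 9671 genes, found 79 of 81 tested members higher in cycling cells and none lower, while it called 21.9% of all genes higher and 23.6% lower. The median log2 fold change was 1.1 for members and -0.09 for all genes. As the plot of fold changes shows, 42 of 42 large subunit genes rose, by 0.78 to 1.5. The 33 tested small subunit genes ran from 0.12 to 1.31 with 32 called, and the 4 stalk genes rose by 0.62 to 1.70. Leaving out any 1 library left 78 or 79 called.

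The largest rise was that of rpl7l1, with a mean of 170 CPM in cycling cells and 41.5 CPM in fabp7a cells (log2 fold change 2.04, SE 0.19, edgeR adjusted p = 9.3e-11). rplp2l averaged 5318 CPM in cycling cells and 1735 CPM in fabp7a cells (1.70, SE 0.17, edgeR adjusted p = 4.2e-10). rpl22l1 rose by 1.5, rpl4, a large subunit protein lining the exit tunnel, by 1.41, and rplp1 by 1.39. rpsa rose by 1.31, rplp0 by 1.30 and rps27a by 1.12. The smallest rises among the members called were those of rps27.2 (0.54), rplp2 (0.62), rps26 (0.64), rpl22 (0.78) and rpl34 (0.83). rps27.2, rplp2, rps26 and rpl22 each have a second gene among the members. The 2 members not called were rps19bp1, at 0.23 with an edgeR adjusted p of 0.498, and rps27l, at 0.12 with an edgeR adjusted p of 0.579. rps27l had 482 CPM in cycling cells and 413 CPM in fabp7a cells of 3dpl, 261 and 254 CPM in Non-injured, 362 and 333 CPM in 3dpl/MTZ, and 335 and 354 CPM in Non-injured/MTZ.

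Of the other lists in cycling cells, 34 of 34 tested ribosome biogenesis genes were higher, with a median log2 fold change of 1.71. faua and rack1 were higher too. Elongation factors had 9 of 10 higher and 1 lower, initiation factors 19 of 29 higher and 2 lower, and p53 targets 3 of 8 higher and 2 lower. Mitochondrial ribosomal proteins had 21 of 73 higher and 1 lower. With 21.9% of all genes called higher and 23.6% lower, nothing is read from the p53 counts or from the number of mitochondrial ribosomal proteins called higher.

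Between libraries, cycling cells gave a log2 ratio of 0.37 for 3dpl over Non-injured (interval 0.35 to 0.39) and of -0.21 for 3dpl/MTZ over Non-injured/MTZ (interval -0.22 to -0.19), on 80 and 18 cells and on 97 and 24 cells. In the first, 76 of 80 members lay above 0, against 54.7% of all genes. At or past 0.5 were 34 against 22% of all genes, with 0 at or past -0.5 against 15.6%. In the second, 28 of 80 members lay above 0, against 55.5% of all genes. At or past 0.5 were 3 against 21.8%, and 8 were at or past -0.5 against 11.9%. The ratio was -0.35 for 3dpl/MTZ over 3dpl, with 24 members at or past -0.5 against 8.26% of all genes. It was 0.23 for Non-injured/MTZ over Non-injured, with 3 of 78 at or past 0.5 against 16%. In that pair 67 of 78 members lay above 0, against 59.8% of only 351 genes, the members among them. The lesion comparison thus had opposite signs with and without MTZ in these small sets of cells. The make-up of the class differed between libraries. Cells that passed the fabp7a gate were 48.8% of cycling cells in 3dpl and 77.8% in Non-injured, and 73.2% in 3dpl/MTZ and 87.5% in Non-injured/MTZ. Among those cells alone, a split chosen after seeing the data, the log2 ratio was 0.15 for 3dpl over Non-injured (39 and 14 cells) and -0.29 for 3dpl/MTZ over Non-injured/MTZ (71 and 21 cells). In 3dpl the remaining 41 cycling cells had 29.6% ribosomal protein UMIs. The microglia and macrophage markers summed in cycling cells to 36.6 CPM in 3dpl (4 of 15 with a UMI), 16.3 CPM in Non-injured (2 of 15), 378 CPM in 3dpl/MTZ (13 of 15, with 10 mpeg1.1 UMIs) and 14.9 CPM in Non-injured/MTZ (2 of 15). mpeg1.1 was at 0 in the cycling cells of the libraries other than 3dpl/MTZ, and the part of these markers in the ratios was not tested.

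**Figure D4:**
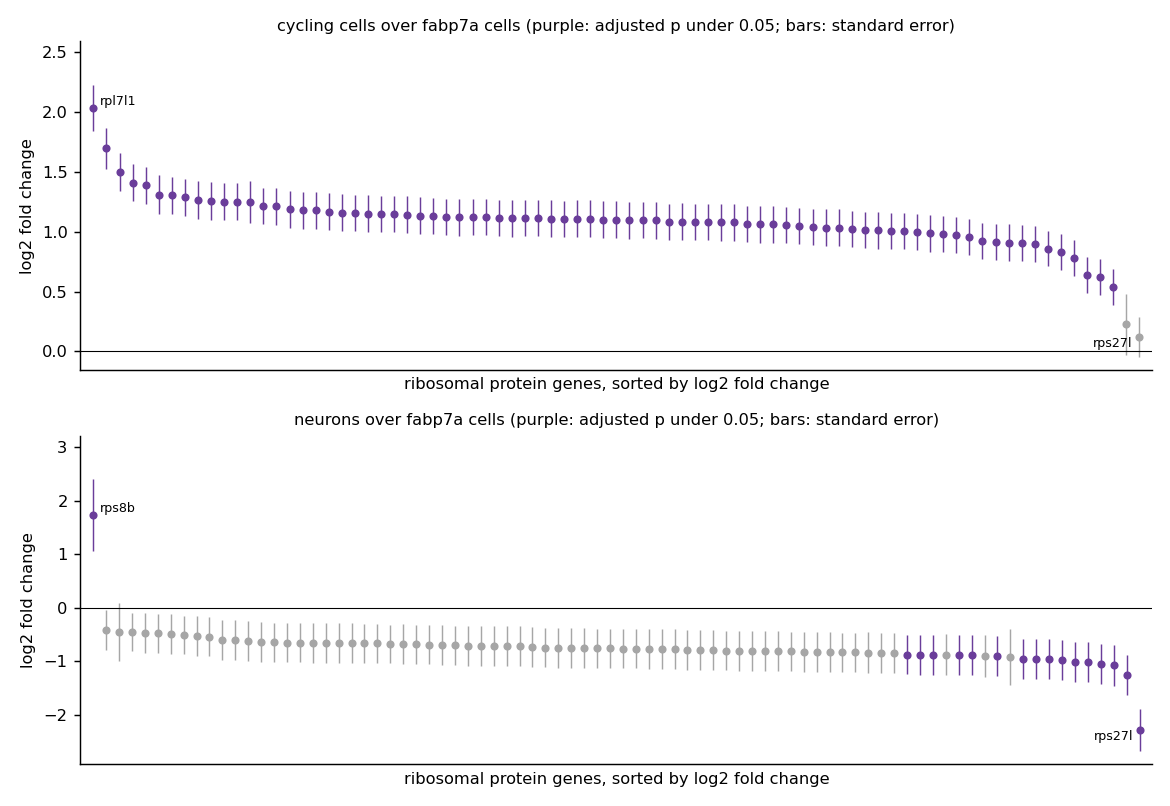
Log2 fold changes of ribosomal protein genes in cycling cells (top, 4 libraries) and neurons (bottom, 2 libraries) over fabp7a cells, sorted by size, with the highest and the lowest named. Points are edgeR estimates, bars their standard errors, and purple marks an adjusted p under 0.05. In cycling cells 79 of 81 are purple and above 0; in neurons 16 of 82 are purple and below 0 and rps8b is purple and above 0.

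Neurons had a smaller share of ribosomal protein UMIs than fabp7a cells in the 2 libraries with at least 10 neurons. The share was 10.8% in 17 neurons and 14.4% in fabp7a cells of 3dpl, and 8.96% in 157 neurons and 11.7% in fabp7a cells of 3dpl/MTZ. The log2 ratios were -0.42 and -0.39, and with 2 libraries the exact sign-flip permutation test cannot give p below 0.5. The smaller sets did not share 1 direction: 9 neurons of Non-injured gave 0.31 and 6 neurons of Non-injured/MTZ gave -0.56. Among 3dpl/MTZ cells with 4000 to 8000 UMIs the log2 ratio was -0.07. 3dpl/MTZ neurons stood below 3dpl neurons by a log2 ratio of -0.27, with 15 of 77 members at or past -0.5 against 13.8% of all genes and 0 at or past 0.5 against 24.7%.

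The edgeR test on these 2 libraries, which has 1 residual degree of freedom and leans on the spread of all genes, called 16 of 82 members lower in neurons and 1 higher, while it called 21.6% of all 11210 genes lower and 17.1% higher. In this fit the members' count was close to the background, although 81 of 82 lay below 0 with a median of -0.77 against -0.23 for all genes. The count ran from 2 to 57 with the filter, the tool and the gate. It was 46 with DESeq2 against 6.83% of all genes, and 48 with no count filter against 12.8%. It was 57 with a gate share 2 times as high against 22.0%, and 2 with the stricter cell filter against 21.6%. With library totals in place of TMM it was 6 against 16.6%, and the medians were -0.39 for members and 0.09 for all genes. rps27l fell most (log2 fold change -2.29, SE 0.39, edgeR adjusted p = 3.8e-08). It had 105 CPM in neurons and 413 CPM in fabp7a cells of 3dpl, and 87.7 and 333 CPM in 3dpl/MTZ. The neuron values rest on 12 UMIs in 3dpl and 53 UMIs in 3dpl/MTZ. rpsa fell by 1.26, rps12 by 1.08, rplp2l by 1.06 and rpl29 by 1.02 on the log2 scale. Among the smallest called falls, those of rps28, rps14 and rpl35a were of 0.88 to 0.89. rps8b was called higher at 1.73, on 4 UMIs in 3dpl neurons and 13 UMIs in 3dpl/MTZ neurons, and was not called with DESeq2 or without the library block.

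Paralogs gave a measure that does not depend on the total of a cell, namely the share of a family's UMIs that 1 member took. Reads from near-identical copies may have been assigned to either gene or lost, so the levels of such shares are uncertain, whereas the same rule applied to every library. rpl22l1 took 26.3% of rpl22l1 and rpl22 UMIs in fabp7a cells of 3dpl and 13.8% in Non-injured, with exact binomial intervals of 25.4% to 27.3% and 12.6% to 15.2%. It took 22.5% in 3dpl/MTZ and 14.1% in Non-injured/MTZ. Both lesioned libraries thus lay above both unlesioned ones, and among cells with 4000 to 8000 UMIs the shares were 24.6% in 3dpl, 16.0% in Non-injured, 22.5% in 3dpl/MTZ and 14.9% in Non-injured/MTZ. In cycling cells rpl22l1 took 35.0% in 3dpl and 23.2% in Non-injured, and 31.3% in 3dpl/MTZ and 22.4% in Non-injured/MTZ. The cycling share exceeded that of fabp7a cells in 4 of 4 libraries, by 8.75 ± 0.43 points (SD, n = 4).

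**Figure D5:**
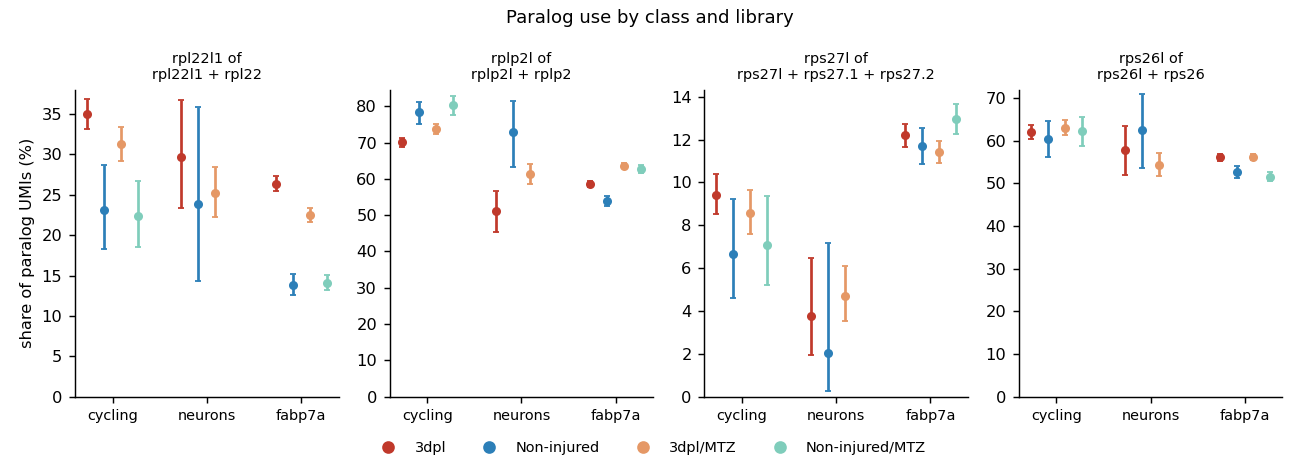
Share of a paralog family's UMIs taken by rpl22l1, rplp2l, rps27l and rps26l in cycling cells, neurons and fabp7a cells, 1 point per library, with exact binomial 95% intervals. Points with under 50 UMIs of the family are left out. rpl22l1 lies higher in 3dpl and 3dpl/MTZ than in the unlesioned libraries in fabp7a cells and in cycling cells.

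rplp2l took 70.1%, 78.3%, 73.7% and 80.3% of the P2 stalk UMIs in cycling cells of 3dpl, Non-injured, 3dpl/MTZ and Non-injured/MTZ, against 58.6%, 53.9%, 63.7% and 62.7% in fabp7a cells. The difference was 15.9 ± 6.54 points (SD, n = 4). rps26l, one of 2 genes for a small subunit protein at the mRNA exit, took a mean of 61.9% in cycling cells and 54.1% in fabp7a cells, above in 4 of 4 libraries. It was higher in fabp7a cells of both lesioned libraries, with 56.0% in 3dpl and 56.2% in 3dpl/MTZ. The unlesioned ones had 52.7% in Non-injured and 51.5% in Non-injured/MTZ. Among cells with 4000 to 8000 UMIs the intervals of 3dpl (53.9% to 56.9%) and Non-injured (51.6% to 56.4%) overlapped, unlike those of rpl22l1. rps27.1 took a mean of 66.2% of rps27.1 and rps27.2 UMIs in cycling cells and 60.2% in fabp7a cells, also above in 4 of 4. In fabp7a cells it took 58.2% in 3dpl and 59.2% in Non-injured, with overlapping intervals of 57.3% to 59.1% and 57.8% to 60.5%. With MTZ it took 56.5% in 3dpl/MTZ and 67.0% in Non-injured/MTZ. Among cells with 4000 to 8000 UMIs the shares were 58.0% in 3dpl, 57.2% in Non-injured, 56.3% in 3dpl/MTZ and 67.1% in Non-injured/MTZ. There the 3dpl share was the larger one of the pair without MTZ. rpl7l1 UMIs were 5.36% of those of rpl7l1 and rpl7 in cycling cells and 2.86% in fabp7a cells, again above in 4 of 4.

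rps27l, whose mammalian counterpart is a p53 target, went the other way. It took 9.42%, 6.64%, 8.56% and 7.09% of the S27 family in cycling cells of 3dpl, Non-injured, 3dpl/MTZ and Non-injured/MTZ, against 12.2%, 11.7%, 11.4% and 13.0% in fabp7a cells. In neurons it took 3.75% in 3dpl and 4.70% in 3dpl/MTZ. rpl5a and rpl5b, copies for a large subunit protein that carries 5S rRNA, were near even in fabp7a cells. There rpl5a took 51.6%, 47.9%, 55.8% and 46.9% in the same order of libraries, higher in both lesioned ones. The intervals of 3dpl (50.1% to 53.2%) and Non-injured (45.2% to 50.5%) overlapped. rps8a held at least 99.4% over rps8b in fabp7a cells. With 4 libraries an exact sign-flip test of any of these class differences cannot go below that same p, and they were given without a test.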

How the data were processed

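Members and gene lists were chosen with earlier results of these data known. The authors deposited whole-number UMI counts per gene and cell barcode for each of 4 libraries (10x Chromium 3′ v3), made with Cell Ranger and GRCz11 per the submitters' processing notes; these name version 3.1.0 and the file headers 4.0.0. The annotation release and cell-calling settings are not given in the sources used here, and labels name no run or date. Symbols with several identifiers (518) were summed. Kept cells had 300 genes or more and mitochondrial UMIs up to 25%, and 50 doublets were dropped, the top 0.8% by Scrublet score (scanpy 1.11.5) per 1000 barcodes. UMIs were summed per library and class and given as CPM. Ratios carry exact conditional binomial 95% intervals, CPM exact Poisson and shares Clopper-Pearson intervals, for counting error only; PCR and sampling of fish are not covered. Genes reaching 100 UMIs over both libraries were counted against a log2 ratio of 0.5.

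Classes were compared within libraries with edgeR 4.0.16 (R 4.3.3, TMM, filterByExpr, glmQLFit, library block, adjusted p threshold 0.05), and DESeq2 1.42.0 was an alternative. Simulated data used 1 dispersion (spread beyond counting error) of 0.05 for every gene, and changed genes had at least 100 expected UMIs. On these data the edgeR test for cycling cells recovered 30.1% of changes of 1 on the log2 scale and 74.8% of changes of 2. The test for neurons recovered 3.77% and 63.8%, so at that setting it missed most changes of 1. The setting was not fitted to ribosomal protein genes. In the real cycling fit 79 of 81 of them were called at a median of 1.1, so these rates need not hold for them. Cells are not replicates. Libraries hold separate pools of different conditions. The edgeR p-values rest mainly on spread shared over all genes and do not measure each gene's own spread between libraries. Prior degrees of freedom were 29.8 beside 3 residual ones for cycling cells. For neurons the prior was infinite beside 1 residual degree of freedom, so a gene's own spread did not enter. Named members were the 5 highest and 5 lowest by level, the 3 highest and 3 lowest per comparison of libraries (at least 200 UMIs), the 5 highest and 5 lowest called per class test, paralogs, rpsa, rplp0, rps27a and rpl22; a few items of these lists are not reported here. No sequence or coordinates were used here.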

Additional observations from a re-analysis of the deposited data

Results flagged for a closer look

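In cycling cells the summed ribosomal protein level had a log2 ratio of 0.37 for 3dpl over Non-injured and of -0.21 for 3dpl/MTZ over Non-injured/MTZ. The result is listed because the lesion comparison went one way without MTZ and the opposite way with it, with 1 library on each side. Cells that passed the fabp7a gate were 48.8% of cycling cells in 3dpl and 77.8% in Non-injured, and among them the log2 ratio was 0.15 without MTZ and -0.29 with MTZ. The difference between the ratios was not tested, and each unlesioned library held 18 or 24 cycling cells.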

How the results depend on the processing

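The cycling result kept its direction under all 13 alternatives, with mean log2 ratios of 0.95 to 1.32. Members called higher numbered 75 to 79, with 75 in the fit without the replicate block (library as block). Leaving out 1 library gave 0.99 to 1.17 and 78 to 79. By edgeR or DESeq2 0 members were called lower. In the main edgeR fit 0 were lower at an unadjusted p under 0.05 too. The library sums moved more. For 3dpl over Non-injured the log2 ratio was 0.75 with a floor of 800 genes and a ceiling of 10% mitochondrial UMIs, 0.83 with fabp7a at 1%, 0.95 per UMI of other nuclear genes, 0.81 as the mean of cells, 0.83 with cycling cells kept, 0.69 at 4000 to 8000 UMIs (added after seeing the data) and 1.01 with TMM. For 3dpl/MTZ over Non-injured/MTZ these were -0.042 and 0.12, 0.25 and 0.45, 0.22, -0.15 and 0.29, and 0.31 when thinned; the cause of the 2 reversals was not tested. For 3dpl/MTZ over 3dpl they were -0.35 and -0.29, -0.32 and -0.28, -0.28, -0.41 and -0.28, and -0.27 when thinned. For Non-injured/MTZ over Non-injured they were 0.45 and 0.43, 0.38 and 0.077, 0.33, 0.43 and 0.44, and 0.26 when thinned.

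The neuron sum stayed below 0, from -0.63 to -0.07, and leaving out a library gave -0.42 to -0.39. Members called lower in neurons numbered 16, beside 21.6% of all genes. They numbered 6 with library totals beside 16.6%, 46 with DESeq2 beside 6.83% and 48 with no count filter beside 12.8%. With a gate share 2 times as high they numbered 57 beside 22.0%, and with the stricter cell filter 2 beside 21.6%. With doublets kept they numbered 10 beside 21.8%. With at least 5 cells per class (added after seeing the data) they numbered 6 beside 25.8%. The member called higher was lost (0) with DESeq2, no count filter and no replicate block. No neuron test could be made with 1 library left out or at 4000 to 8000 UMIs, since 1 library remained. No paired analysis was possible because each group is 1 library, for the comparisons of libraries. Depth, the single library per group and the small sets of neurons each limit these values.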
